A study of Rattus norvegicus with 16 samples.

Results

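The cells described here were the 662 cells that carried the name endothelial in the authors' final cell-type column among the 28283 cells of injured rat intervertebral discs harvested at 8 weeks. The deposited tables held 149272 single cells in 16 droplet RNA libraries from 8 male Sprague-Dawley rats, which were 8 weeks old at surgery. Each rat gave a library of needle-stabbed lower lumbar discs (LDP, 2 discs pooled) and a library of unstabbed upper lumbar discs (CON), so every control disc came from an operated animal and from another spinal level. Rats 1 to 4 recovered for 2 weeks and rats 5 to 8 for 8 weeks, which gave 4 libraries for each disc type at each time. No label set a batch apart from the groups, and the 2 times were different animals. The authors clustered and named each group's cells separately, and they gave the endothelial name to 3292 of 51365 cells in LDP at 2 weeks, to 3103 of 42560 in CON at 2 weeks and to 0 of 27064 in CON at 8 weeks. The study states a slightly larger total for LDP at 8 weeks than these tables hold, and only the cells in the tables were analysed here.

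Endothelial cells line blood vessels and hold each other through cadherin and claudin junctions. They grow in response to vascular endothelial growth factor (VEGF), which is read by the receptors Kdr and Flt1, and they are kept quiescent by angiopoietin signalling through Tek. Their lining recruits leukocytes with selectins, adhesion molecules and chemokines. The inner disc has no vessels in health, the vessels lie in the outer annulus and beside the endplates, and ingrowth of vessels is a known feature of degenerated discs. Mural cells, which are the pericytes and smooth muscle cells, wrap the vessel from outside and carry contractile proteins.

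The endothelial class was found in every LDP library at 8 weeks. Rat 5 held 225 such cells among 6880 (3.27%, 95% exact interval 2.86 to 3.72), rat 6 held 55 among 2221 (2.48%, 1.87 to 3.21), rat 7 held 175 among 10134 (1.73%, 1.48 to 2.00) and rat 8 held 207 among 9048 (2.29%, 1.99 to 2.62). These intervals cover counting error only. The class was shallower than the disc (IVD) cells of the same libraries: its cells had a median of 3564, 5274, 2356 and 2492 unique molecular identifiers (UMIs, 1 per captured transcript) in rats 5 to 8, against 7936, 9889, 6608 and 6427 in IVD cells. The library of rat 6 was the smallest of the 4, and the authors left 628 of its cells (28.3%) without a name. Any 2 of the 16 libraries shared at most 75 cell barcodes. No doublet caller was run here.

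The name was checked against Cdh5 (the cadherin of endothelial junctions), Plvap (the diaphragm protein of fenestrated and postcapillary vessels), Flt1 (a VEGF receptor) and Emcn (a sialomucin of capillary and venous endothelium). Cdh5, Plvap and Flt1 are among the genes by which the study named its endothelial cluster, so Emcn was the only marker here that the study's list did not hold. A Cdh5 UMI was present in 76.9, 69.1, 60.0 and 62.8% of the class in rats 5 to 8, a Plvap UMI in 73.3, 36.4, 60.0 and 54.1%, a Flt1 UMI in 76.9, 76.4, 66.9 and 68.1%, and an Emcn UMI in 69.3, 54.5, 50.3 and 44.9%. In the deeper IVD cells a Flt1 UMI was found in 6.31, 2.51, 1.99 and 6.04%, and each of the other 3 genes in at most 0.23%. When every cell was thinned to 1000 UMIs, Cdh5 was still detected in 43.9, 32.7, 38.2 and 37.8% of the class and in at most 0.0461% of IVD cells. Thinned in the same way, Emcn was detected in 33.9, 32.7, 38.2 and 21.4% of the class and in at most 0.0763% of IVD cells. Plvap was seen least often in rat 6. Cells with 2 or more of the 4 markers numbered 200 of 225, 40 of 55, 128 of 175 and 153 of 207, which is 521 of 662 in all.

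The promoters of 3 of these markers, of Sele (E-selectin, the leukocyte-capturing selectin of activated endothelium) and of a pair of mural genes are shown because they stand for what the cells of the class carried: Sele ranked among its leading genes, and the mural genes were high in its cells with under 2 endothelial markers. Each line is the RefSeq window on GRCr8 from 250 bases before to 50 bases after the start, 5′ to 3′ on the gene's strand, and capitals mark AGGAAG, an ETS-family core, on either strand. The deposited values were made on rn6, so these positions belong to the promoter table and not to the deposited files. Plvap lies at chr16:18231230-18231529 (minus strand), Flt1 at chr12:12333180-12333479 (plus), Emcn at chr2:228564289-228564588 (plus), Sele at chr13:78936264-78936563 (plus), Rgs5 at chr13:84380827-84381126 (plus) and Acta2 at chr1:241172454-241172753 (minus). Cdh5 had no entry.
Plvap: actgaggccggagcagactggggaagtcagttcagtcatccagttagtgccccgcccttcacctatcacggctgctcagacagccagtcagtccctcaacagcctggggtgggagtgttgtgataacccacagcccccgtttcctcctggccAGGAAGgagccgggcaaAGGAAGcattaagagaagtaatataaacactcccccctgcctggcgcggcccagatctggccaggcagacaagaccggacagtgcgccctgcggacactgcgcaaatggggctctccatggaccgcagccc
Flt1: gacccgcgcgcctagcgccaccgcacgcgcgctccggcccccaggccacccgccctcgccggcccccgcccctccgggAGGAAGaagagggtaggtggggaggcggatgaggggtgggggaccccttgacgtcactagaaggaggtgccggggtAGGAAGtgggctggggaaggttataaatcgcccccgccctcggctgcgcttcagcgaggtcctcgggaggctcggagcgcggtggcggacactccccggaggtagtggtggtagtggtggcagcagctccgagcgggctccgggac
Emcn: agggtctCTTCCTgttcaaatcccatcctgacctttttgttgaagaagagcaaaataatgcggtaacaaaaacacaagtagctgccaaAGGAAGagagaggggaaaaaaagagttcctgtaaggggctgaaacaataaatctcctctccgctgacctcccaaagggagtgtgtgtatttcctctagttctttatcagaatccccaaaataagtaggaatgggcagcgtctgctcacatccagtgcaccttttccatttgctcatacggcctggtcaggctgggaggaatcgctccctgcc
Sele: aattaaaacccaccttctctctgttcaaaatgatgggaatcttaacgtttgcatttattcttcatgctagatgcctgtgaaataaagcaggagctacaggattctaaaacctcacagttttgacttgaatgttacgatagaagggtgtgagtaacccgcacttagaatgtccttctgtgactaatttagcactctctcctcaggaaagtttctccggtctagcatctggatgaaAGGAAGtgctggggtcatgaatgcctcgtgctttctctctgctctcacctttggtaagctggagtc
Rgs5: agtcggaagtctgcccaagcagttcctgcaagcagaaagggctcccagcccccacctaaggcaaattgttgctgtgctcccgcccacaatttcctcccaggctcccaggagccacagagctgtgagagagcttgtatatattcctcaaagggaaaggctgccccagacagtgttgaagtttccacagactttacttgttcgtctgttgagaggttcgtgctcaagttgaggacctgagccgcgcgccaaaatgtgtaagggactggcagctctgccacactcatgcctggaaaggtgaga
Acta2: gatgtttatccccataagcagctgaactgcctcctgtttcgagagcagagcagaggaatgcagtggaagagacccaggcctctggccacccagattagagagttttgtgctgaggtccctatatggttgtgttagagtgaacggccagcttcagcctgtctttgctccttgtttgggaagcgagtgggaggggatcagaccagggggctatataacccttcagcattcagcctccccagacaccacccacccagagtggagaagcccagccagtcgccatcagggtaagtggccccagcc
The Plvap window held the letters 98 and 81 bases before the start, the Flt1 window 172 and 96 bases before it, the Emcn window 243 (opposite strand) and 162 bases before it, and the Sele window 16 bases before it. The Rgs5 and Acta2 windows held no match to the whole motif. AGGAAG occurred in 11549 of 33469 promoter windows of the same length (34.5%), in 9 of the 14 windows found for the 20 genes that ranked highest in the class (64.3%), and in 4 of the 15 windows found for the 20 genes that ranked highest in its cells with under 2 endothelial markers (26.7%). The shorter core GGAAG, which AGGAAG contains, was in 70.1% of all windows, in 10 of those 14 (71.4%) and in 9 of those 15 (60.0%). The Rgs5 and Acta2 windows held it 1 and 2 times. These matches describe letters in the windows and were not tested.

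The class was not of 1 kind. Of its 662 cells, 486 (73.4%) held 2 or more of the 4 endothelial markers and under 2 of 7 mural markers (Rgs5, Acta2, Pdgfrb, Kcnj8, Abcc9, Myh11, Tagln), 35 (5.29%) held 2 or more of both, 83 (12.5%) held 2 or more mural and under 2 endothelial markers, and 58 (8.76%) held under 2 of both. The cells with 2 or more mural and under 2 endothelial markers numbered 8, 12, 38 and 25 in rats 5 to 8, which is 3.56, 21.8, 21.7 and 12.1% of the class. In LDP at 2 weeks the same kind made up 10 of 3292 cells named endothelial (0.304%, and 0, 0.234, 0.654 and 0.263% of the class in rats 1 to 4), and in CON at 2 weeks 8 of 3103 (0.258%). The shares of the 4 libraries at 8 weeks and the 4 injured libraries at 2 weeks did not overlap. At 2 weeks, cells with 3 or more mural and under 2 endothelial markers carried other names: 364 were named IVD and 34 were unnamed in LDP, beside 10 named endothelial, whereas in LDP at 8 weeks 79 were named endothelial and 41 IVD. That order rests on the stricter count. With 2 or more mural markers, whatever the endothelial ones, 18, 16, 42 and 42 cells of rats 5 to 8 were named endothelial. The same count gave 107, 12, 87 and 130 named IVD, which was more in rats 5, 7 and 8. The 35 cells with both kinds of marker had a median of 9350, 9295, 4174 and 7981 UMIs in rats 5 to 8. The cells with 2 or more endothelial and under 2 mural markers had 3520, 4704, 1927 and 2353. The part of doublets in the 35 cells was not tested, and they stay among the cells with 2 or more endothelial markers below.

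**Figure D1:**
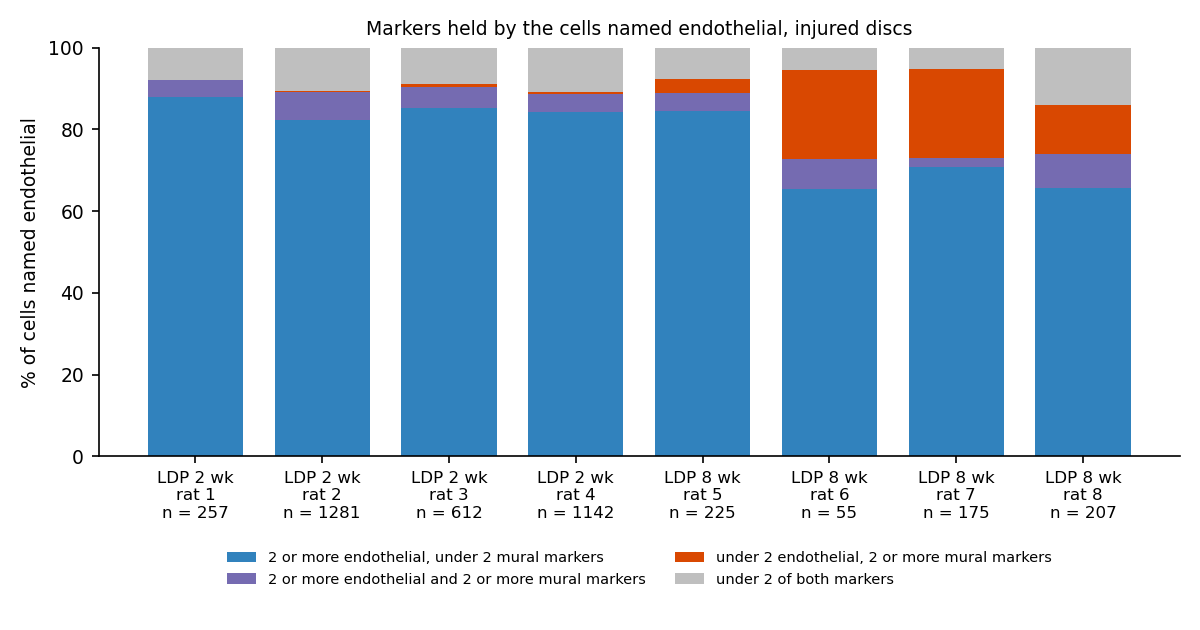
Share of the cells named endothelial (y axis, %) that held 2 or more of 4 endothelial markers, of 7 mural markers, of both or of neither, 1 bar per injured library, with the number of cells named endothelial under each bar. Cells with mural but under 2 endothelial markers made up 3.56 to 21.8% of the class in the 4 libraries at 8 weeks and at most 0.654% in the 4 at 2 weeks.

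On average, the cells with under 2 endothelial markers carried mural transcripts in every library, on genes that the count of endothelial markers did not use. Des, the muscle intermediate filament protein desmin, averaged 162, 529, 309 and 116 CPM (UMIs of a gene scaled to the total of the cell) in these cells of rats 5 to 8, against 4.01, 2.03, 0 and 10.5 in the cells with 2 or more endothelial markers. Myh11, the smooth muscle myosin heavy chain, averaged 159, 860, 928 and 538 CPM against 8.88, 0, 1.28 and 29.7, and Tagln, the smooth muscle actin-binding protein transgelin, 896, 1204, 1916 and 1068 against 31.2, 18.7, 5.51 and 147. Rgs5, a pericyte regulator of G-protein signalling, stood at 153, 788, 1441 and 532 CPM against 8.27, 73.2, 21.9 and 80.5. For each of these 4 genes the lowest library of the first kind lay above the highest library of the second. The first kind comprised 25, 15, 47 and 54 cells, so its averages rest on few cells, fewest in rat 6. Of these cells 8, 12, 38 and 25 held 2 or more mural markers, while 17, 3, 9 and 29 held under 2, so not every cell of this kind was mural by that count. Genes 2-fold or more higher in it in every library numbered 67 of 2513 ranked, and 49 were 2-fold or more lower. The 20 leading genes also held Acta2, Myl9, Tpm2, Npy1r, Hey2, Sncg, Mustn1, Xirp1, Twist1, Zeb2 and Cryab. No test was made, since both kinds were parted by expression in the same cells.

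**Figure D2:**
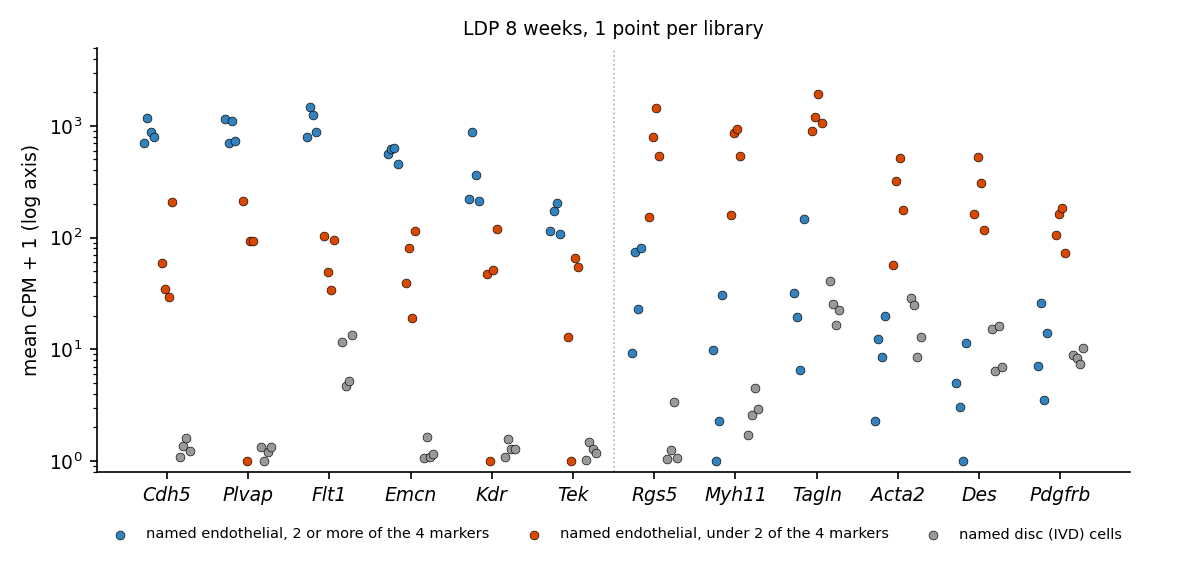
Mean CPM + 1 (log axis) of 6 endothelial and 6 mural genes in LDP at 8 weeks, 1 point per library for the cells named endothelial with 2 or more markers, those with under 2, and IVD cells. Des, for example, stood at 116 to 529 CPM in the cells with under 2 markers and at 0 to 10.5 in those with 2 or more.

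Against the other classes of the same libraries, the endothelial class held 85 of 2513 genes at 4-fold or more above every other class in all 4 libraries, as a description with no test. The 20 with the largest lowest-library ratio were Emcn, Cyyr1, Cdh5, Ptprb, Adgrf5, Sele, Sox17, Adgrl4, RGD1310587, Sox7, Mmrn2, Plvap, Cd34, Fam110d, Flt1, Clec14a, Cavin2, Npy1r, Esam and Myct1. Sele averaged 368, 485, 381 and 490 CPM over the class and at most 0.169 CPM in IVD cells. Npy1r, a neuropeptide Y receptor, was split within the class: it averaged 334, 1238, 642 and 334 CPM in the cells with under 2 endothelial markers and 17.8, 37.7, 12.0 and 46.4 in the others.

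From here, levels are mean CPM in the 521 class cells with 2 or more of the 4 markers, in rats 5 to 8, unless another set is named. The transcription factors of endothelial identity were present in every library: Erg averaged 286, 455, 360 and 351 CPM, Sox17 135, 156, 146 and 158, and Lmo2 148, 202, 139 and 127. In IVD cells Erg stood at 12.2 to 20.4 CPM and Sox17 at no more than 0.348. Sox17 varied least among these 3, and no library stood apart from the others on it.

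Some genes of vessel growth varied more between rats, mainly through rat 6. Kdr, the main VEGF receptor, averaged 220, 874, 361 and 214 CPM. Esm1, a secreted proteoglycan of sprouting tip cells, averaged 53.1, 645, 65.2 and 43.2, and Cxcr4, the receptor of the chemokine Cxcl12, 152, 800, 249 and 285. Rat 6 was the highest library on all 3, and also on Dll4 (the Notch ligand of tip cells), at 175 CPM against 44.6 to 90.5. It was highest as well on the tight junction protein Cldn5, at 693 CPM against at most 175, and lowest on the fatty acid carrier Fabp4, at 106 CPM against 1328 to 3711. Rat 6 gave only 40 of these cells. Tek, the angiopoietin receptor, was more even at 113, 171, 203 and 107 CPM, and its relative Tie1 stood at 154, 200, 220 and 151.

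The growth factors came from both sides. Vegfa stood at 125, 262, 306 and 221 CPM in IVD cells and at 23.6, 38.8, 94.7 and 68.6 in the endothelial cells, and was lower in the endothelial cells in 4 of 4 libraries. Pgf, the placental growth factor that binds Flt1, showed the other order, at 98.4, 55.7, 139 and 135 CPM in the endothelial cells and 2.47 to 6.04 in IVD cells. Cxcl12 averaged 155, 231, 316 and 254 CPM and stayed at or under 1.90 in IVD cells. Pdgfb, the factor by which endothelium recruits mural cells, averaged 34.5, 62.2, 25.8 and 32.3 and stayed at or under 0.0946 in IVD cells. Of the 20 genes with values on the list of disc angiogenic ligands and anti-angiogenic factors, 13 were below the IVD cells in all 4 libraries and 6 above. Of all 14319 genes with values, 34.1% were below the IVD cells in all 4 libraries and 19.2% above, and of the 5513 with a mean of 20 CPM or more in either kind of cell 34.0% and 36.4%. These shares are the background for each such count by list that follows. Among the inhibitors of vessel growth, Thbs2 (a thrombospondin) stood at 1546 to 2516 CPM in IVD cells against 35.1 to 388, and Cnmd (chondromodulin) at 83.8 to 239 against 0 to 27.0.

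Genes of several vessel types were detected, and each is compared here between rats, not with other genes. Selp, the P-selectin of venules, averaged 230, 207 and 115 CPM in rats 5, 7 and 8 and was lowest in rat 6, and Vwf, the von Willebrand factor, averaged 65.7, 56.1, 134 and 69.0. Aqp1, a water channel of capillaries, averaged 795, 768, 893 and 707 CPM with little spread. Of arterial genes, Efnb2 averaged 127, 345, 148 and 228 CPM, while Hey1 and Sema3g stayed at or under 26.1 and 8.85. Gja4, an arterial connexin that smooth muscle also uses, stood at 4.90 to 47.4 CPM, against 116 to 404 in the class cells with under 2 endothelial markers. Prox1, the defining transcription factor of lymphatic endothelium, was at 0 in rats 5 and 7 and at 28.4 and 4.99 in rats 6 and 8. Of the 8 sinusoidal and scavenger genes with values, 3 (Lyve1, Il6st and Vcam1) were above the IVD cells in all 4 libraries and 2 (Fcgr2b and Adam23) were at 0 in all 4. The list summed to 1095, 1075, 2286 and 1127 CPM, most of it from the protease Ctsl and the cytokine co-receptor Il6st, while the scavenger receptor Mrc1 was at no more than 5.46.

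Genes that capture and attract leukocytes were present in all 4 libraries. Sele averaged 376, 667, 521 and 454 CPM, and Icam1, the integrin ligand for firm adhesion, 492, 270, 566 and 558. Among the chemokines, Ccl2 (which draws monocytes) averaged 2109, 786, 500 and 1140 CPM, Cxcl1 (which draws neutrophils) 1255, 797, 679 and 1543, and Cxcl10 (which draws T cells) 565, 577, 420 and 349. The same 3 chemokines stood at no more than 26.6, 28.2 and 6.33 CPM in IVD cells. Rat 5 was highest on Ccl2 and rat 7 lowest, a range of over 4-fold that no test here compares. The immediate early gene Fos, which rises with cell dissociation as well as with other stress, averaged 718, 654, 1445 and 1209 CPM, against 172 to 488 in IVD cells, and its part in these levels was not tested.

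Of the 22 genes with values on the list of antigen presentation and interferon genes, 13 were above the IVD cells in all 4 libraries (19.2% over all genes and 36.4% over those at 20 CPM or more, as above), and 3, the class II genes RT1-Da, RT1-Ba and RT1-Bb, were at 0 in all 4. B2m, the class I light chain, averaged 10466, 8161, 8952 and 7174 CPM against 504 to 597 in IVD cells. Bst2, an interferon-induced membrane protein, averaged 1205, 1260, 1273 and 612 CPM against 4.07 to 7.12. Ifi27l2b, an interferon-linked gene outside that list, was lower than in IVD cells in rats 5 and 6 (187 and 70.5 CPM against 236 and 101) and higher in rats 7 and 8 (244 and 145 against 129 and 102). Of the 19 cell cycle genes with values, 8 were above the IVD cells in all 4 libraries and 2 below, to be read against the same shares over all genes, and the list summed to 1225, 1912, 1234 and 1576 CPM against 422 to 622 in IVD cells. The 5 genes with a mean of 20 CPM or more (Pcna, Tubb5, Stmn1, Hmgb2 and H2afz) made up most of that sum. The proliferation marker Mki67 stood at 3.57, 4.68, 4.19 and 14.1 CPM, and Top2a, the topoisomerase of dividing cells, at 8.88, 5.12, 0 and 0.

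Markers of other cell types were measured in the same cells. The pericyte and smooth muscle list summed to 102, 329, 181 and 403 CPM, against 132 to 163 in IVD cells. Of its 12 genes with values, 5 were above the IVD cells in all 4 libraries and 1 below. The myeloid genes C1qa, C1qb, C1qc, Aif1 and Ctss and the lymphoid genes Pax5, Cd3e and Cd3g were at 0 in all 4 libraries. Of 7 Schwann cell genes, Sox10 was at 0 in all 4 and 1 (Cnp) was above the IVD cells in all 4, and the list summed to 48.7 to 86.1 CPM against 603 to 681 in IVD cells. In all, 5 of 15 myeloid and 9 of 16 lymphoid genes with values were at 0 in all 4, and the summed level was 39.0 to 181 CPM for the myeloid list and 100.1 to 164 for the lymphoid list, against 61.0 to 141 and 4.29 to 13.7 in IVD cells. The share of all genes at 0 in all 4 libraries was not counted, so no count of genes at 0, here or above, is read as absence. Cd14, a receptor for bacterial lipopolysaccharide, averaged 37.8, 31.4, 78.2 and 49.7 CPM, and the neutrophil genes S100a8 and S100a9 were at 25.6 to 46.4 in rats 5 and 7 and at 0 in rats 6 and 8. Ebf1, a B cell transcription factor that other cell types also use, averaged 98.2, 164, 98.6 and 134 CPM and made up nearly all of the lymphoid sum. Disc transcripts were present and uneven: Dcn (decorin) averaged 305, 213, 1329 and 1287 CPM, against 8605 to 14235 in IVD cells, and Chad (chondroadherin) 403, 167, 635 and 1532. Rats 7 and 8 were higher than rats 5 and 6 on both. Haemoglobin Hba-a2 stood at 3620 CPM in rat 5 and at 11.4 to 73.7 in the others, and in IVD cells of rat 5 at 1291. The part of these transcripts in the levels above was not tested.

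Whether the endothelial share differed with time was read first from the names. The class made up 2.44% ± 0.638 (SD, n = 4) of LDP libraries at 8 weeks and 6.17% ± 3.13 (n = 4) at 2 weeks, where the libraries of rats 1 to 4 stood at 2.95, 8.05, 4.15 and 9.54%. The difference was −3.73 percentage points and did not pass the exact two-sided permutation test (p = 0.0571, 70 splits, smallest possible 0.0286). The groups overlapped, as rat 1 at 2 weeks lay below rat 5 at 8 weeks. With only the cells that held 2 or more markers the difference was −3.61 points with the same p of 0.0571 in the exact permutation test. Fewer endothelial cells and fewer such cells released by digestion cannot be told apart in these shares.

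Endothelial markers in CON at 8 weeks were carried by cells without a name. There, 1029 cells held 2 or more of Cdh5, Plvap, Flt1 and Emcn, of which 974 (94.7%) were unnamed and 55 were named IVD. In LDP at 8 weeks, 521 of the cells with 2 or more markers (96.7%) were named endothelial, 13 IVD, 3 myeloid and 2 lymphoid, and 0 were unnamed. The count of 0 endothelial cells in CON at 8 weeks is thus a count of names, and marker cells were compared between the groups without the names.

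After thinning each cell to 1000 UMIs, with shallower cells left out (7 to 83 per LDP library and 42 to 112 per CON library), cells with 2 or more markers made up 1.92, 1.17, 1.05 and 0.997% of LDP libraries and 3.07, 2.37, 1.35 and 3.02% of CON libraries in rats 5 to 8. The LDP value was below the CON value of the same rat in 4 of 4 rats, while the groups overlapped through rat 7 in CON and rat 5 in LDP. The mean was 1.29% ± 0.427 (SD, n = 4) against 2.45% ± 0.7999 (n = 4), a difference of −1.17 points (exact two-sided permutation test, p = 0.0571). Blocked by rat, the exact sign-flip test gave p = 0.125, the smallest that 4 pairs allow. Without thinning the difference was −1.68 points. A further pair of comparisons was chosen after the data were seen: the thinned share in LDP was 4.48% at 2 weeks, −3.19 points to 8 weeks (exact permutation p = 0.0286), and in CON 7.09% at 2 weeks, −4.63 points to 8 weeks (p = 0.0286). The groups of both did not overlap, and 0.0286 is the smallest p the splits allow. Of the cells with 2 or more markers, 26.5% were named IVD in CON at 2 weeks against 5.35% in CON at 8 weeks. Without thinning and without those IVD-named cells, the share was 7.75, 8.73, 6.36 and 8.50% in CON at 2 weeks and 4.34, 3.27, 1.79 and 4.37% in CON at 8 weeks, and rat 3 moved most, from 12.7%. Adjusted by Benjamini-Hochberg over the 4 share comparisons, these 4 p-values each became 0.0571.

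**Figure D3:**
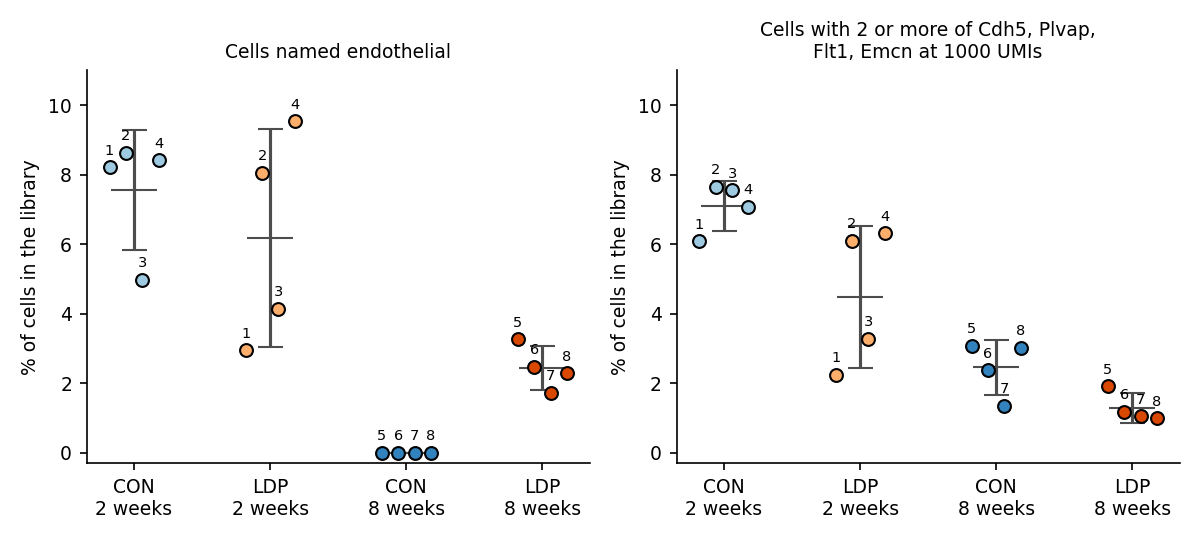
Left, cells named endothelial, and right, cells with 2 or more of Cdh5, Plvap, Flt1 and Emcn after thinning to 1000 UMIs, as % of the cells of each library (y axis), 1 numbered point per rat with mean and SD. No cell of CON at 8 weeks carried the name, yet marker cells made up 1.35 to 3.07% of those 4 libraries.

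The class at 8 weeks was compared with the class at 2 weeks in injured discs, over 4788 genes at a mean of 20 CPM or more, by limma on log2(mean CPM + 1) per library, where the median of all genes was −0.21. With Benjamini-Hochberg adjustment, 10 genes passed (0.209% of those tested), of which 9 were higher (0.188%) and 1 was lower (0.0209%) at 8 weeks. Among the 9, Cryab, Des, Ddit4l, Myl9 and Npy1r averaged under 20 CPM in the class at 2 weeks. They entered the test only through the 8-week libraries, so the balance of 9 to 1 is not read as a result. Cryab, a small heat shock protein of muscle, rose by 3.91 on the log2 scale (SE 0.50, adjusted p = 0.0115 by limma), at 109, 695, 133 and 115 CPM against 9.50, 11.8, 16.2 and 9.09 at 2 weeks. Tagln rose by 2.73 (SE 0.37, adjusted p = 0.0115 by limma), at 127, 342, 519 and 387 CPM against 32.7, 62.8, 44.0 and 45.7. Rat 6 was the highest library for Cryab, and no library of 1 time overlapped the other for either gene. Of the 4788 genes, 102 were higher and 252 lower at 8 weeks with no overlap. The others that rose were Des (2.95), the stress-response gene Ddit4l (2.53), the contractile light chain Myl9 (2.69), Npy1r (2.82), the synuclein Sncg (2.16), the cytokine Il6 (2.05) and the transcription factor Cebpb (1.59), all as log2 differences. IVD cells were higher too on Ddit4l, at 197 to 537 CPM against 122 to 184, and on Cebpb, at 466 to 583 against 327 to 450. On Npy1r IVD cells were lower at 8 weeks, and on the rest of the genes that rose their values at the 2 times overlapped. On the list of 13 pericyte and smooth muscle genes, 8 reached the minimum, which is a mean over both times, and some did so only through the 8-week libraries (Des averaged 6.55 CPM, Acta2 8.86 and Pdgfrb 10.1 at 2 weeks), so no count or median is drawn from them. Of the 8, Tagln and Des are named above, Mcam had an estimate of −0.12 and the others missed the threshold. Of 22 tested genes on the list of core endothelial genes, none passed, 20 were below 0 (90.9%, against 70.1% of all genes) and the median was −0.47. In the cells with 2 or more markers, chosen on endothelial genes, the median was −0.29. There 16 of 22 were below 0 (72.7%, against 70.8% of all genes). The counts of called genes rested on single libraries: without LDP rat 1 there were 0 higher and 0 lower genes, and without LDP rat 5 there were 40 and 5.

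All 9 genes that rose were 2-fold or more higher, by the median library, in the class cells with under 2 endothelial markers than in the others, as were 224 of the 4788 tested (4.68%). Cryab, Des, Ddit4l, Myl9 and Npy1r reached the minimum only through the 8-week libraries, in which this split was also measured. Il6 was not higher in rat 8 (73.0 against 78.0 CPM). The count is therefore a description, and no support is drawn from it. The comparison of 8 with 2 weeks was also made in the cells with 2 or more markers at both times. Over 4775 genes limma called 0 genes, 475 had an unadjusted p under 0.05 (9.95%), and edgeR's quasi-likelihood test called 0 higher and 1 lower. Leaving out each library in turn gave 0 calls by limma in 7 of 8 fits and 1 lower call, Col1a1, without rat 7. In those cells Tagln stood at 31.2, 18.7, 5.51 and 147 CPM at 8 weeks and 35.5, 65.1, 33.6 and 50.5 at 2 weeks, and Cebpb at 264, 176, 263 and 217 against 158, 159, 152 and 207. The estimates for Tagln (−0.70) and Sncg (−0.13) changed sign, those for Npy1r (0.33), Ddit4l (0.65), Il6 (0.72) and Cebpb (0.43) were smaller, and Cryab, Des and Myl9 were under the minimum level. The share of cells with 2 or more mural and under 2 endothelial markers was higher in every library at 8 weeks than at 2 weeks, as given above, and its part in the calls of the whole class was not tested.

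**Figure D4:**
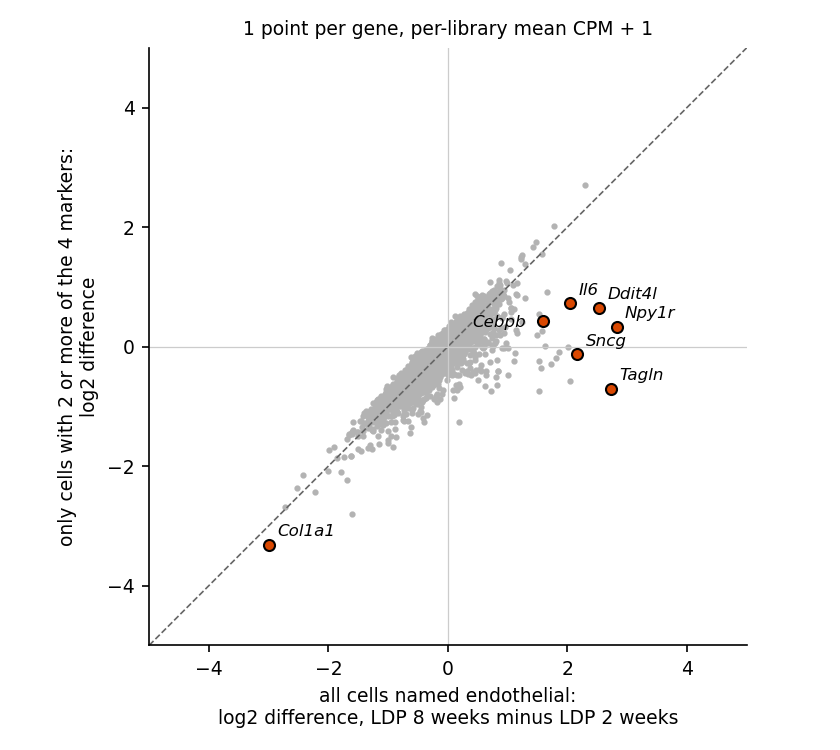
Log2 difference of mean CPM + 1, LDP 8 weeks minus LDP 2 weeks, for each gene tested in all cells named endothelial (x axis) and in those with 2 or more endothelial markers (y axis), with the dashed line marking equal differences. Called genes are red: Tagln lies at 2.73 on the x axis and −0.70 on the y axis, and Col1a1 near the line at −3.003 and −3.31.

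Col1a1, the type I collagen chain, was the 1 gene that fell in the whole class, by 3.003 on the log2 scale (SE 0.53, adjusted p = 0.0482 by limma), at 23.2, 62.4, 184 and 85.6 CPM against 321, 1021, 795 and 385 at 2 weeks. Its difference in the cells with 2 or more markers was −3.31 (adjusted p = 0.0616 by limma and 0.0456 by edgeR). IVD cells were lower too, at 564 to 1903 CPM against 5651 to 11666. Relative to the IVD cells of the same library the difference was −0.17 (SE 0.62, adjusted p = 0.911 by limma). The genes next to it in rank missed the threshold: Ifi27 (−1.02, an interferon-induced gene), Pgf (−1.30), Edn1 (−1.59, the vasoconstrictor endothelin) and Arhgap18 (−1.15) had adjusted p from 0.0910 to 0.0974 by limma. Pgf stood at 109, 130, 143 and 131 CPM against 283, 572, 228 and 265 at 2 weeks, and rat 2 was the highest. It was lower with no overlap, as were 252 of the 4788 genes.

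Genes of the basement membrane, the sheet on which endothelium rests, had lower estimates in the cells with 2 or more markers. Of 22 genes tested 19 were below 0 (86.4%, against 70.8% of all 4775), with a median log2 difference of −0.59 against −0.20 over all genes, and none passed. The disc-cell list stood as low in the same comparison, with 15 of 18 genes below 0 (83.3%), a median of −0.63 and none passing, and the part of disc transcripts in the lower matrix values was not tested. In the whole class, 17 of 22 basement membrane genes were below 0 (77.3%, against 70.1% of all genes), with a median of −0.34. The list went the other way when the whole class was taken relative to the IVD cells of the same libraries. There 18 of 22 genes were above 0 (81.8%, against 35.4% of all genes), with a median of 0.59, and 1 passed as higher. Col4a1 (type IV collagen) averaged 317, 565, 1022 and 872 CPM at 8 weeks and 2051, 2388, 1745 and 952 at 2 weeks, and the groups overlapped through rats 7 and 4. Sparc, a matrix protein that disc cells also make, averaged 702, 642, 1129 and 1108 CPM against 2158, 2715, 2216 and 1737 with no overlap, as for 232 of the 4775 genes (4.86%), and its difference of −1.33 had an adjusted p of 0.145 by limma. Of the other lists, the 18 tested genes of VEGF and angiopoietin signalling had a median of −0.17 and the 20 of leukocyte adhesion and chemokines a median of 0.02, with none passing in either.

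Changes that the endothelial class did not share with the IVD cells of its library were tested as the difference of the 2 time contrasts. Both classes held other shares of mural cells at the 2 times, by the stricter count of 3 or more mural and under 2 endothelial markers. Such cells were 0.304% of the endothelial class and 0.860% of IVD cells at 2 weeks, and 11.9% and 0.166% at 8 weeks. The part of this naming in the differences below was not tested. By limma, 64 of 4788 genes passed (1.34%), of which 51 were higher (1.07%) and 13 lower (0.272%). Leaving out 1 library gave 16 (without rat 4) to 75 (without rat 5) higher genes. Myh11 led, with a difference of 5.30 (SE 0.48, adjusted p = 0.000719 by limma): the class stood at 25.5, 235, 250 and 162 CPM at 8 weeks against 18.1, 31.6, 27.8 and 14.4, and IVD cells at 0.698 to 3.47 against 11.8 to 34.4. IVD cells were lower at 8 weeks in every library, and the class was above every library of 2 weeks in rats 6, 7 and 8 but not in rat 5. Rgs5 (4.59), Npy1r (5.05), C1qtnf1 (4.26), Des (4.00), Olfml2b (3.96), Cryab (3.88), Adcy3 (3.82), Xirp1 (3.58) and Tagln (3.49) followed. Pdgfrb was also among the 51 (2.93, adjusted p = 0.0105 by limma), and the same minimum let low genes in through the 8-week libraries. Npy1r, Des, Olfml2b, Cryab, Adcy3, Xirp1 and Pdgfrb averaged under that minimum in the class at 2 weeks and were tested only for this reason. Of the 51, 44 were 2-fold or more higher, by the median library, in the cells with under 2 endothelial markers, as were 224 of the 4788 tested (4.68%). That split was measured in the same 8-week libraries, so no support is drawn from the count. With only the cells that held 2 or more markers, a choice made after the data were seen, 0 were higher and 1 was lower. Calls were lost there while several estimates relative to IVD cells stayed above 2 on the log2 scale. Npy1r stood at 2.56 (adjusted p = 0.252 by limma), Rgs5 at 2.33 (0.309) and C1qtnf1 at 2.24 (0.203). IVD cells were lower at 8 weeks on each: Npy1r at 0 to 2.19 CPM against 3.68 to 7.92, Rgs5 at 0.0538 to 2.38 against 7.67 to 19.97. C1qtnf1 stood at 2.64 to 4.92 CPM in IVD cells against 13.2 to 28.8. In the cells with 2 or more markers themselves, the time differences were 0.33 (Npy1r), −0.74 (Rgs5) and −0.00597 (C1qtnf1). The lower gene was Rtn1, a reticulon of the endoplasmic reticulum, at −2.15 (SE 0.26, adjusted p = 0.0334 by limma) and at −2.02 in the whole class. It averaged 29.3, 12.7, 12.1 and 15.2 CPM in those cells at 8 weeks and 29.5, 56.7, 38.5 and 61.1 at 2 weeks, while IVD cells stood at 2.71 to 8.75 against 1.43 to 2.20. At 8 weeks Rtn1 thus averaged under 20 CPM in those cells, as it did in the whole class. It was tested only through the 2-week libraries, and no support is drawn from its call. Egr1, an immediate early gene, was lower relative to IVD cells (−1.77, adjusted p = 0.0119 by limma), but its class level was 591, 420, 680 and 705 CPM against 479, 445, 572 and 519, and the IVD level was 226 to 660 against 81.8 to 118. The other lower genes named by rank were Ifi27l2b (−1.84), Klf7 (−1.44), Ctdsp1 (−1.23), Myl12a (−1.16), Sipa1l1 (−1.16), Pea15 (−1.11), Serpinb6a (−1.08) and Fubp1 (−1.01). Of these, Sipa1l1 averaged under 20 CPM in the class at 8 weeks and was likewise tested only through the 2-week libraries.

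Injured and uninjured discs at 8 weeks were compared in all cells with 2 or more of the 4 markers, whatever their name, which were 203, 41, 134 and 161 cells in LDP and 370, 270, 100 and 289 in CON. Leaving out the 4 chosen markers, limma called 0 of 4771 genes, 256 had an unadjusted p under 0.05 (5.37%), of which 52 (1.09%) were higher and 204 (4.28%) lower in LDP, and edgeR called 0. The same count of 0 was found with rat as a block. The core endothelial genes lay close to no difference, with 10 of 18 above 0 (55.6%, against 36.2% of all genes) and a median log2 difference of 0.02, against −0.12 over all genes. Kdr averaged 217, 853, 346 and 208 CPM in LDP and 454, 274, 332 and 258 in CON, Sele 371, 651, 513 and 434 against 493, 637, 222 and 483, and Icam1 487, 266, 543 and 542 against 405, 460, 414 and 563. The groups overlapped on all 3. With 4 libraries a side, these values do not show that the endothelial cells of the 2 kinds of disc were alike.

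The genes with the smallest p were lower in LDP and missed the threshold. AABR07000398.1, a locus without a symbol, averaged 8194, 7802, 10943 and 6372 CPM in LDP against 12960, 17159, 17916 and 18966 in CON (−1.02, adjusted p = 0.499 by limma). Lpl, the lipase that capillaries display, averaged 79.7, 47.1, 39.5 and 73.4 CPM against 200, 101, 92.5 and 140 (−1.13, adjusted p = 0.854 by limma), and Pxdn, a peroxidase that crosslinks type IV collagen, 9.14, 7.64, 24.0 and 25.1 against 56.9, 49.0, 48.3 and 35.7 (−1.63). All 3 were apart between the groups, as were 146 of the 4771 genes (3.06%). Also lower were AABR07015057.1 (−1.71) and the protease Htra1 (−0.82), and higher were Snapc1 (1.08), LOC100912034 (1.34), Lsm8 (0.84), the thioredoxin Txn1 (0.74) and Dph3 (0.54), none past the threshold.

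By list, 19 of 22 basement membrane genes lay below 0 (86.4%, against 63.8% of all genes) with a median of −0.41, and 13 of 20 leukocyte adhesion and chemokine genes above 0 (65.0%, against 36.2%) with a median of 0.12. Of 18 disc-cell genes, 17 had estimates below 0 (94.4%), with a median of −0.997, and none passed or was apart between the groups. Acan (aggrecan) averaged 113, 47.9, 211 and 419 CPM in LDP marker cells and 249, 328, 359 and 225 in CON marker cells, so that LDP rats 5 and 6 were lowest and LDP rat 8 highest. The part of these disc transcripts in the lower matrix values was not tested. Cldn5 had the highest estimate of the core list, at 1.59, and stood at 69.0, 677, 167 and 102 CPM in LDP against 20.3, 46.6, 131 and 73.4 in CON, with rat 6 far above the others.

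**Figure D5:**
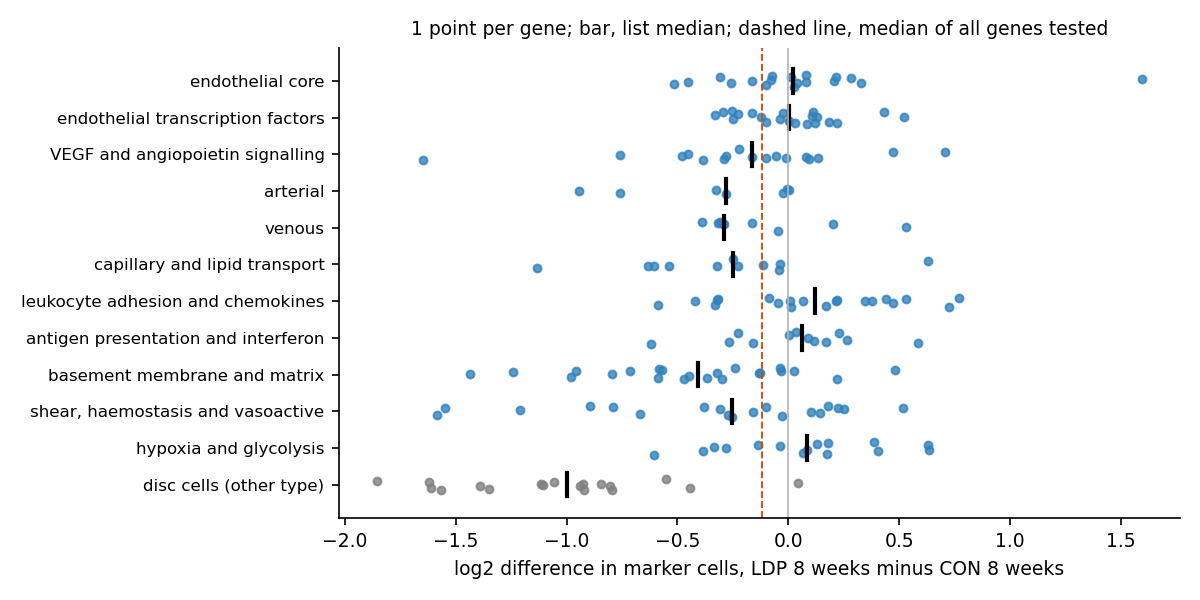
Log2 difference of mean CPM + 1 in marker cells, LDP 8 weeks minus CON 8 weeks (x axis), 1 point per gene tested and 1 row per gene list, with a black bar at the list median and a dashed line at the median of all genes (−0.12). No gene passed the test, and of the lists drawn the disc-cell list lay lowest, with a median of −0.997.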

How the data were processed

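Droplet 3′ RNA libraries of 16 disc samples were analysed, 1 table of cells per sample. The authors aligned and filtered the reads in Partek Flow (rn6, per the submitters' processing notes), clustered each group and deposited, per cell, log2(CPM + 1) expression values, a total count (an expected count, not always whole), the percent of mitochondrial and ribosomal counts, and cell-type names. Here log2 values were returned to CPM and averaged per library and class. Whole reads recovered for 99.4% of values within 0.02 and entered only the edgeR alternative. The minimum mean was 20 CPM in tests and 50 CPM in the class profile, the pseudocount 1 CPM, the threshold an adjusted p of 0.05. R 4.3.3, limma 3.58.1 (trend), edgeR 4.0.16, Python 3.11.15, numpy 2.4.6, pandas 2.3.3 and scipy 1.17.1 (exact permutation tests) were used. Scripts were tested on simulated data.

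Named genes were up to 10 per direction with the largest called difference and no overlap, otherwise the 5 with the smallest p, plus 20 profile genes and the listed genes. The cells, gene lists and tests were chosen with earlier results of these data known. Same-numbered LDP and CON libraries came from the same rat. Their deviations from the group means in marker cells correlated at 0.241, 0.0437, −0.0412 and −0.0489 for rats 5 to 8. P-values measure the spread between rats, with 4 libraries a group. The mural marker counts, the cells with 2 or more endothelial and under 2 mural markers, the removal of IVD-named and mural-marked cells, edgeR between LDP and CON or in cells with 2 or more markers, and the thinned shares across time were added after seeing the data.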

Additional observations from a re-analysis of the deposited data

Results flagged for a closer look

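In CON at 8 weeks, 974 unnamed cells held 2 or more of Cdh5, Plvap, Flt1 and Emcn, although no cell of that group carried the endothelial name. They were 355 of 801 unnamed cells in rat 5, 253 of 585 in rat 6, 84 of 88 in rat 7 and 282 of 331 in rat 8.

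Single libraries stood apart from the other 3 of their group on some named genes, where the gap to the nearest library was a large part of the group's range. In LDP at 8 weeks rat 6, the library with the fewest endothelial cells, stood apart on Cryab (695 CPM against 109 to 133, gap 0.959 of the range), on Xirp1 (181 against 18.7 to 40.0, gap 0.869) and, in marker cells, on Lsm8 (77.2 against 47.0 to 49.0, gap 0.934). At 2 weeks, rat 2 stood apart on Pgf (572 CPM against 228 to 283, gap 0.842) and Adcy3 (14.9 against 5.31 to 6.62, gap 0.864), and rat 4 on Cebpb (220 against 155 to 166, gap 0.838). In CON at 8 weeks rat 6 stood apart on Dph3 (122 against 110 to 111, gap 0.958). Of 92 groups of 4 examined, 8 were marked, with Cryab counted in both comparisons that name it, where chance marks about 1 in 20.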

How the results depend on the processing

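For the class at 8 against 2 weeks (9 genes higher, 1 lower), a pseudocount of 10 gave 14 higher, no filter on low values 2 lower, the CON libraries of 2 weeks in the fit 27 and 25, edgeR 34 and 6, quantile normalization 40 and 3, only cells with 2 or more markers 0 and 0, and only cells with 2 or more endothelial and under 2 mural markers 0 and 0. Leaving out 1 library gave 0 to 40 higher and 0 to 5 lower. Higher counts moved past 1.5 times without LDP rat 1 (0), rat 2 (5), rat 3 (3), rat 5 (40), rat 7 (5) and rat 8 (5), and lower counts without rats 1, 2, 3, 6 and 8 (0 each), rat 5 (5) and rat 7 (2). Tagln (−0.70) and Sncg (−0.13) reversed in the cells with 2 or more markers, as did Sncg (−0.0893) with mural-marked cells also left out. Relative to IVD cells (51 higher, 13 lower), a pseudocount of 10 gave 27 lower, no filter 28 and 6, and only cells with 2 or more markers 0 and 1. Leaving out 1 library gave 16 to 75 higher and 2 to 23 lower, with moves past 1.5 times without rats 2 (24 higher, 6 lower), 3 (31, 6), 4 (16, 2), 8 (23 higher), 1 (6 lower) and 6 (23 lower). The causes were not tested, beyond the fewer cells or libraries that these settings hold.

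The shares kept their direction: without 1 library the named share differed by −4.80 to −2.61 points (exact permutation p = 0.0571 to 0.114) and the LDP against CON marker share by −1.54 to −0.962 points (exact permutation p = 0.0571 to 0.114). Without 1 library the smallest p the splits allow is 0.0571, so none of these fits could fall below 0.05. With 3 of the 4 genes the LDP against CON marker share differed by −0.581 points (exact permutation p = 0.0857). The added marker-share differences across time, without 1 library, were −3.94 to −2.59 points in LDP and −4.97 to −4.27 in CON, both with an exact permutation p of 0.0571, the smallest allowed there. The replicate block, which pairs LDP and CON of 1 rat, left the marker share at −1.17 points (exact sign-flip p = 0.125) and the gene calls at 0, as did every other setting and each library left out (0 to 0). It changed no call. Over pairs of a named gene and a setting, the class comparison kept direction and side of the threshold in 149 of 216 (55 lost the call, 9 gained one, 3 reversed), and the one relative to IVD cells in 145 of 213 (68 lost the call). Genes named between LDP and CON had no call and gained none in 149 pairs. Rat 6 had the fewest class cells at 8 weeks, 55.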

Other observations

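In the cells with 2 or more endothelial markers, rat 6 at 8 weeks stood far from the other injured libraries on a few further genes, which were chosen after their values were seen. Abcb4, a phospholipid transporter, averaged 6.40, 385, 4.51 and 18.8 CPM in rats 5 to 8 against 0 to 5.72 CPM at 2 weeks, and Slc39a8, a metal ion transporter, averaged 3.92, 199, 21.0 and 9.99 CPM against 2.02 to 6.30 CPM. Neither passed limma's test (adjusted p = 0.505 and 0.527), and 40 cells stand behind the values of rat 6. Slc2a1, the glucose transporter of barrier endothelium, averaged 81.5, 176, 83.6 and 62.7 CPM at 8 weeks against 29.2, 40.1, 35.9 and 36.2 CPM at 2 weeks with no overlap (log2 difference 1.38, SE 0.31, adjusted p = 0.332 by limma). Cx3cl1, the membrane-bound chemokine fractalkine, averaged 103, 545, 80.3 and 229 CPM against 59.2, 43.8, 61.9 and 47.9 CPM, also with no overlap (1.75, SE 0.47, adjusted p = 0.373 by limma). The groups did not overlap for 232 of the 4775 genes in this comparison (4.86%).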
